A study of Homo sapiens with 9 samples.

Results

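Interferon-stimulated genes (ISGs) were followed in H1975 cells, a human lung adenocarcinoma line of epithelial cells, in 9 RNA-Seq libraries. The list holds 40 genes with known antiviral or interferon-signalling roles, matched by symbol to the 61544 genes of the files, and all 40 were found. The 9 libraries form 3 groups of 3. In all of them, endogenous GRP78, the ER chaperone encoded by HSPA5, was first depleted for 24 h with si78, an siRNA directed at the 3′ untranslated region of its transcript. The cells were then transfected for 48 h with pcDNA3 (vector), with FLAG-tagged wild-type GRP78 (WT), or with the same protein carrying alanine at 3 lysines of its nuclear localization signal (NLS Mut). All 9 libraries thus come from cells that received both an siRNA and a plasmid, and cells without them were not analysed here. The labels number the libraries but do not say whether they came from separate cultures, so p-values measure the spread between these libraries, which may be technical.

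Type I and type III interferons bind receptors at the cell surface and activate the kinases JAK1 and TYK2. STAT2 and IRF9 then act in a complex called ISGF3, which binds interferon-stimulated response elements (ISREs) in promoters. Type II interferon acts mainly through gamma-activated sites (GAS). The products of the induced genes sense viral RNA, degrade it, block translation or membrane fusion, or modify other proteins with the ubiquitin-like protein ISG15. Epithelial cells can make interferon themselves when nucleic acid reaches their cytoplasm, and many tumour lines keep ISGs at a steady level without added interferon.

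The sequences below show what the promoters of the members share, since this is where ISGF3 would bind. RefSeq promoter windows (GRCh38.p14, 250 bases before to 50 bases after the start of transcription) were matched for 33 of the 40 genes. IRF7, OAS2, OASL, IFIT2, IFITM2, MX2 and USP18 had no entry. The ISRE core, searched as GAAANNGAAA on both strands, was present in 20 of the 33 windows (60.6%), against 3.57% of all 35116 promoter windows. It occurred once in 5 members and more than once in 15, and 36 of its 39 matches began before the start site, the farthest of them 164 bases upstream. The GAS letters TTCNNNGAA were present in 10 of the 33 windows (30.3%) and in 7.66% of all windows, and 4 of the 11 matches shared bases with an ISRE core. These matches are letters in a window, and no binding was measured. In the 30-base stretches that follow, read 5′ to 3′ along the gene, capitals mark the ISRE core or its reverse complement. They were taken for members that the results turn on and for the most abundant member of a role. They do not show every match: IFI6, DDX60 and ISG15, among others, have further cores that are not shown.
OAS3 at chr12:112938321-112938350, plus strand: agaaagaaacGAAACTGAAAgcagggaatt
OAS3 at chr12:112938452-112938481, plus strand: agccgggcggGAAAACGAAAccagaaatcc
IFI6 at chr1:27672329-27672358, minus strand: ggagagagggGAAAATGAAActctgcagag
IFI6 at chr1:27672288-27672317, minus strand: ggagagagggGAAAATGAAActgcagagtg
DDX60 at chr4:168318786-168318815, minus strand: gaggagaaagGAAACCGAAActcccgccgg
ISG15 at chr1:1013380-1013409, plus strand: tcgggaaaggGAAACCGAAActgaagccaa
IFIT3 at chr10:89327865-89327894, plus strand: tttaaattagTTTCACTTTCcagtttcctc
IFITM3 at chr11:320876-320905, minus strand: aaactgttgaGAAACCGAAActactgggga
IFITM1 at chr11:314024-314053, plus strand: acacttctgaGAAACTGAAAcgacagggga
MX1 at chr21:41420559-41420588, plus strand: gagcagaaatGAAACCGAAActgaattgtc
IFI27 at chr14:94110631-94110660, plus strand: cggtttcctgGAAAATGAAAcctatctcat
PARP14 at chr3:122680800-122680829, plus strand: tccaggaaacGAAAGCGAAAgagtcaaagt
BST2 at chr19:17405735-17405764, minus strand: ctgggaaactGAAACTGAAAacctaattaa
DDX60, ISG15, IFITM3 and MX1 carried the same core, GAAACCGAAA. OAS3 carried GAAACTGAAA farther from its start and GAAAACGAAA next to it. IFI6 carried the core GAAAATGAAA within 2 copies of the same repeated stretch. STAT2, CMPK2, RSAD2 and SAMHD1 had a window without the ISRE core.

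Many members also lie side by side in the genome (GENCODE release 29, GRCh38). OAS1, OAS3 and OAS2 follow each other on chromosome 12 from 112906777 to 113011723, and IFIT2, IFIT3, IFIT1 and IFIT5 on chromosome 10 from 89283694 to 89421001. MX2 and MX1 are neighbours on chromosome 21, IFI44L and IFI44 on chromosome 1, HERC6 and HERC5 on chromosome 4. PARP9 and DTX3L start next to each other on opposite strands of chromosome 3, and CMPK2 and RSAD2 do so on chromosome 2.

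ISGs were well expressed in all 3 groups. Of the 40 members, 39 passed the filter on low counts, and each of these 39 lay above the median tested protein-coding gene, which had 5.58 RPKM (reads per kilobase of exon, scaled for library size). Their mean levels over the 9 libraries ranged from 7.15 RPKM for EPSTI1 to 585 RPKM for ISG15, which was above 99.8% of tested protein-coding genes. ISG15, the ubiquitin-like modifier, was followed by IFITM3 at 450.0 RPKM, a membrane protein that blocks viral fusion, and by IFI6 at 350.4 RPKM, a small membrane protein of the ER and mitochondria. BST2 (tetherin), which holds budding virus at the cell surface, was at 278 RPKM. Counts were high enough to measure small changes: 27 members had a mean of at least 100 CPM (reads per library, brought to one size by TMM scaling), and a tested member had between 486 and 18184 reads in a library.

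**Figure D1:**
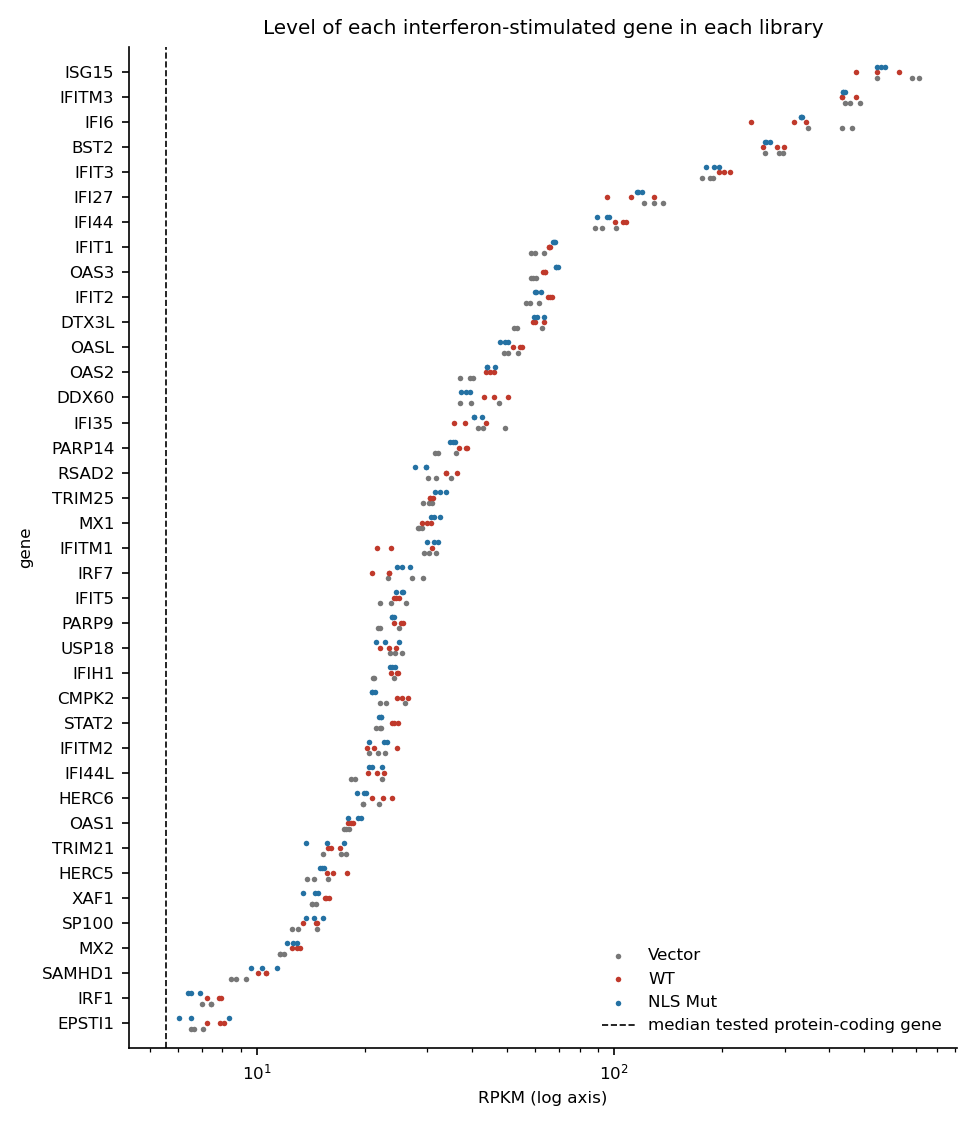
Level of each of the 39 tested members in each of the 9 libraries, in RPKM on a log axis, with 1 point per library coloured by group. The dashed line is the median tested protein-coding gene at 5.58 RPKM, and all members lie to its right, from EPSTI1 at 7.15 to ISG15 at 585.

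The member that did not pass was IRF9, the DNA-binding subunit of ISGF3 (chromosome 14 from 24161053 to 24166565, plus strand), which was listed at 0 reads in all 9 libraries. In GENCODE release 29, 48.4% of its exonic bases are shared with a read-through gene on the same strand, which was also listed at 0, and a read that falls on more than 1 gene is left out of the counts. Whether this accounts for the 0 was not tested, and no level of IRF9 is given here. IFNAR2, a chain of the type I interferon receptor, had 1 to 14 reads per library and shares 83.2% of its exonic bases with such a read-through gene.

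HSPA5 checked the labels of vector against the GRP78 plasmids. It was at 378 ± 17.1 CPM (SD, n = 3) with vector, 5664 ± 572 with WT and 4961 ± 195 with NLS Mut, so both plasmids raised it, by 3.91 and 3.71 on the log2 scale (adjusted p = 2.2e-28 and 7.1e-28). WT and NLS Mut differed by 0.19 (adjusted p = 0.079), which does not tell one construct from the other, so the labels WT and NLS Mut could not be checked in this way. Libraries held 17671055 to 27476298 reads on genes. The epithelial marker list summed to 4383 to 5140 CPM per library. The 6 leukocyte markers summed to 5.57 to 10.0 CPM, with a mean under 1 CPM for 5 of them. CD3E and MS4A1 were at 0 in every library. Fibroblast markers summed to 6.90 to 11.8 CPM and endothelial markers to 5.29 to 8.05 CPM. Markers of plasmacytoid dendritic cells, the professional makers of interferon, summed to at most 0.037 CPM. The vector libraries differed from each other in how their counts followed GC content. For each rise of 10 points in GC percent, counts relative to the mean library changed by 0.087 and 0.098 on the log2 scale in vector replicates 2 and 3, the highest of the 9 libraries. Vector replicate 1, at -0.039, lay within the range of the libraries with GRP78 plasmids, which was -0.063 to 0.028 with WT and -0.037 to -0.018 with NLS Mut. Without vector replicate 1, the number of genes called among all genes rose from 104 to 1256 for WT against vector, and from 148 to 1002 for NLS Mut against vector. Results are therefore given with and without this library.

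The summed level of the list stayed within a narrow range, but a sum is set mostly by the abundant members and can hide changes in opposite directions. It was 8247 ± 66.2 CPM with vector, 8443 ± 116 with WT and 8282 ± 79.7 with NLS Mut (SD, n = 3). All 3 WT libraries (8366 to 8576 CPM) lay above every other library (8172 to 8334 CPM). In bulk RNA a lower level per cell and fewer cells with the RNA cannot be told apart. Each comparison below covers 39 members out of 18653 tested genes, with edgeR's quasi-likelihood test, and calls were made at an adjusted p under 0.05. The comparisons with vector share its 3 libraries.

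WT against NLS Mut compares GRP78 with an intact and with a mutated nuclear localization signal. These groups also differed in HSPA5 by 0.19 on the log2 scale (adjusted p = 0.079, edgeR). The part of that difference in the members was not tested. This comparison called 0 of 39 members by edgeR, against 0.504% of all tested genes. At an unadjusted p under 0.05 there were 12 members, against 11.6% of all tested genes. DESeq2 called 3, DDX60, CMPK2 and RSAD2, against 1.69% of all tested genes. The median log2 fold change of the members was 0.02, against -0.005 over all tested genes, with 23 members positive and 16 negative. In 13 members all WT libraries lay above all NLS Mut libraries (8.25% of all tested genes did so), and in 4 members all lay below (9.42% of all tested genes).

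WT against vector called 1 of 39 members, IFI6, which fell, against 0.558% of all tested genes. DESeq2 called 4 others, which rose (OAS2, IFIT2, PARP14 and SAMHD1), against 1.4% of all tested genes. At an unadjusted p under 0.05 edgeR gave 19 members, against 11.7% of all tested genes. The median of the members was 0.11, against -0.002 over all tested genes, and 29 members were positive and 10 negative. The groups did not overlap in 11 members higher with WT (6.53% of all tested genes) and in 1 member lower (6.54% of all tested genes).

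NLS Mut against vector called 1 of 39 members, OAS3, which rose, against 0.793% of all tested genes. At an unadjusted p under 0.05 edgeR gave 11 members, against 12.2% of all tested genes. DESeq2 called 4 that rose, OAS3, OAS2, IFIT1 and SAMHD1, against 2.31% of all tested genes. The median was 0.03, with 22 members positive and 17 negative. Groups without overlap were found for 7 members higher with NLS Mut, where the background was 9.28%, and for 6 lower, where it was 8.82%. Across the 3 comparisons the standard error (SE) of a member's log2 fold change was between 0.05 and 0.11, and its 95% confidence interval lay within 0.5 of zero on the log2 scale for 38, 38 and 39 of the 39 members. The exceptions were IFITM1 between WT and NLS Mut and IFI6 with WT against vector.

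**Figure D2:**
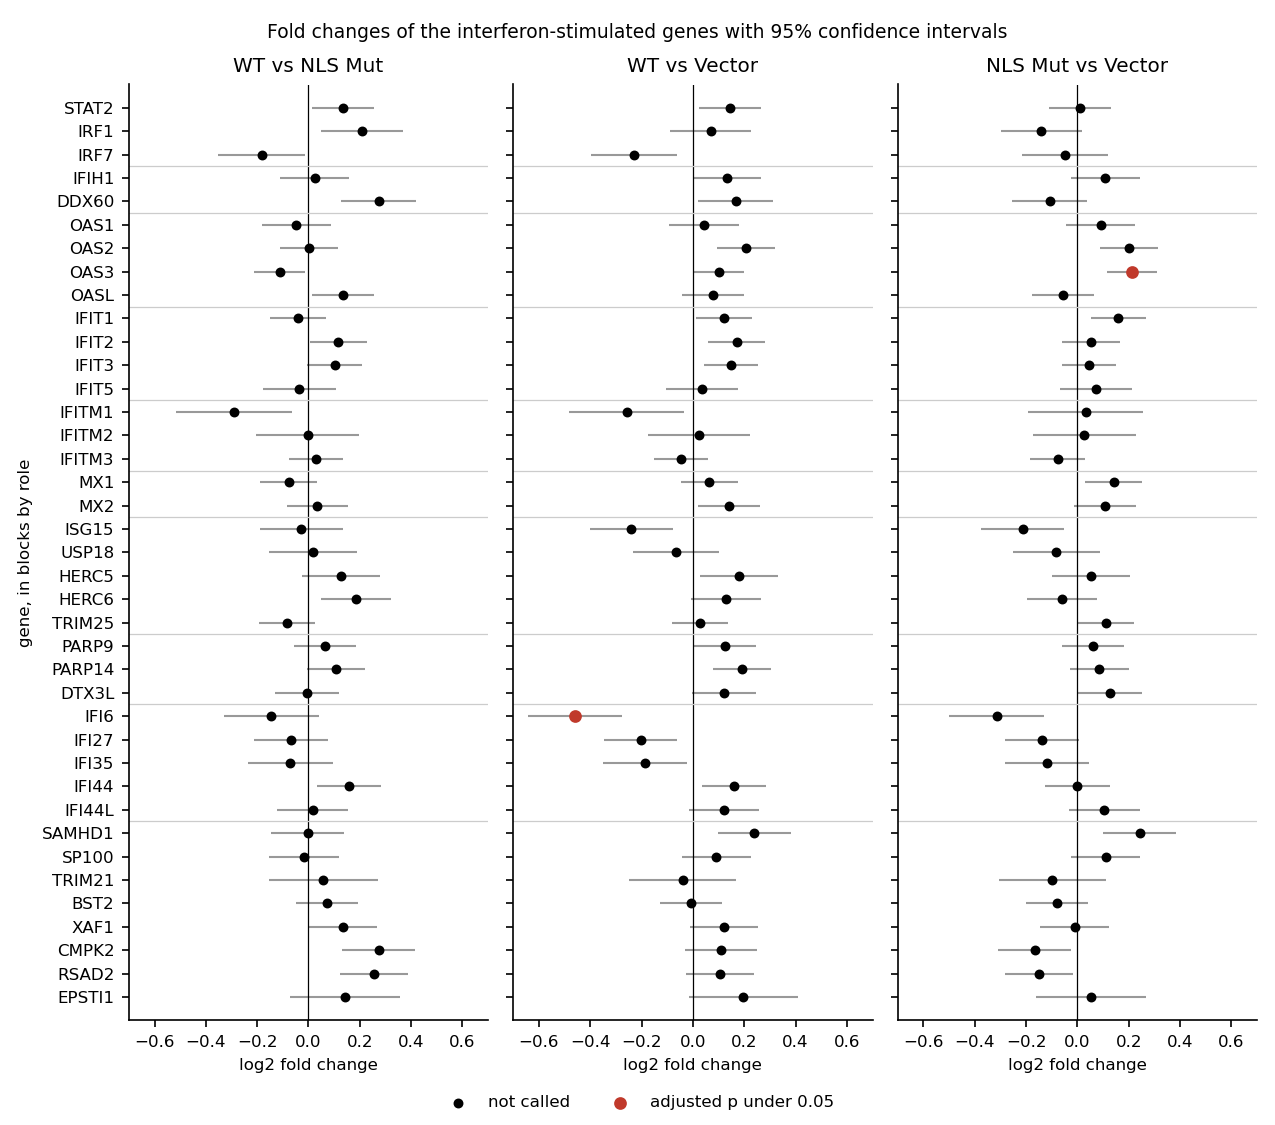
Log2 fold change of each tested member (points) with its 95% confidence interval (lines) in the 3 comparisons, in blocks by role. The called genes, in red, are IFI6 at -0.46 for WT against vector and OAS3 at 0.21 for NLS Mut against vector.

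The 2-5A synthetases make the second messenger that switches on RNase L, which cuts RNA. OAS3, the largest of them (chromosome 12 from 112938352 to 112973249), had 499, 483 and 489 CPM in the vector libraries, 529, 520 and 528 CPM with WT, and 567, 573 and 566 CPM with NLS Mut. The 3 groups did not overlap, with vector lowest and NLS Mut highest. The log2 fold change of NLS Mut against vector was 0.21 (SE 0.05, adjusted p = 0.024, edgeR). For WT it was 0.10 against vector (adjusted p = 0.41) and -0.11 against NLS Mut (adjusted p = 0.34), neither of them called. The call of OAS3 was lost without vector replicate 2 (adjusted p = 0.16) or 3 (0.13) and without any 1 of the NLS Mut libraries (0.13, 0.19 and 0.15), while the log2 fold change stayed between 0.19 and 0.27 in every fit.

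OAS2 (chosen after its values were seen) had 253, 248 and 232 CPM with vector, 289, 282 and 275 with WT and 276, 291 and 276 with NLS Mut. All 6 libraries with GRP78 plasmids lay above the 3 vector libraries. Its log2 fold change was 0.21 and 0.20 against vector (SE 0.05 in both, adjusted p = 0.084 in both), which missed the threshold, while DESeq2 called it in both. OAS1 had 86.6 to 96.6 CPM over the 9 libraries and OASL, a relative without synthetase activity, 168 to 195 CPM, and the largest change of either was 0.13, for OASL between WT and NLS Mut.

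Among the IFI genes, IFI6 had the largest decrease of any member. It had 303, 375 and 400.1 CPM in vector replicates 1, 2 and 3, 209, 299 and 276 CPM with WT, and 289, 290.4 and 288 CPM with NLS Mut. The WT and NLS Mut libraries all lay below those with vector, but the lowest vector library, replicate 1, was close to the highest WT library, replicate 2. The log2 fold change against vector was -0.46 with WT (SE 0.09, adjusted p = 0.011, edgeR) and -0.32 with NLS Mut (SE 0.09, adjusted p = 0.10). Between WT and NLS Mut it was -0.14 (adjusted p = 0.58), with overlapping libraries. The WT call was lost with DESeq2 (adjusted p = 0.091), with only those groups in the fit (0.065), and without vector replicate 2 (0.080) or 3 (0.11) or WT replicate 1 (0.14) or 3 (0.051).

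IFI27, a mitochondrial protein and the most abundant IFI gene by CPM, had 501, 536 and 569 CPM with vector, 396, 534 and 463 with WT and 497, 479 and 484 with NLS Mut. Its log2 fold change with WT against vector was -0.20 (adjusted p = 0.21). IFI35 was at -0.19 in the same comparison (adjusted p = 0.34). IFI44 and IFI44L were at 0.16 and 0.12, and none of these 4 was called.

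ISG15 is attached to other proteins by UBA7 and HERC5 and removed by USP18. It had 512, 642 and 673 CPM with vector, 446, 589 and 513 with WT and 525, 539 and 513 with NLS Mut, so the vector group held both a low and 2 high libraries, and the groups overlapped. Against vector it differed by -0.24 on the log2 scale with WT and by -0.21 with NLS Mut (adjusted p = 0.18 and 0.23). HERC5 and its relative HERC6 had 0.18 and 0.13 for WT against vector. USP18 had -0.06. TRIM25, a ubiquitin ligase that activates RIG-I, had 0.03 and lay between 276 and 321 CPM in all libraries.

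**Figure D3:**
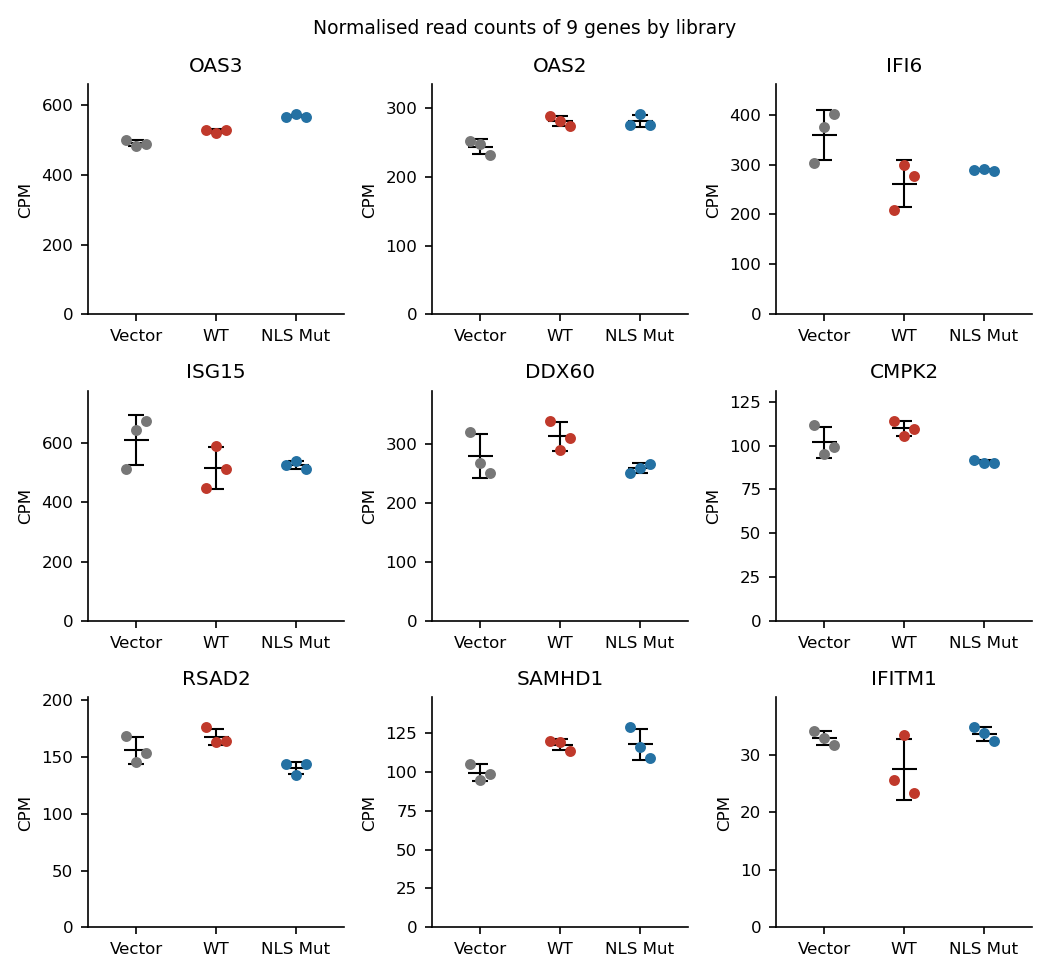
CPM of 9 members in each library (points), with the mean and SD of each group of 3 (bars), on axes that start at 0. OAS3 is higher with NLS Mut than with vector without overlap, IFI6 is lower in both GRP78 groups, and DDX60, CMPK2 and RSAD2 are lower with NLS Mut than with WT.

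DDX60, CMPK2 and RSAD2 came nearest to a call between WT and NLS Mut. RSAD2 (viperin, chosen after its values were seen) makes a chain-terminating nucleotide from CTP, CMPK2 is the nucleotide kinase next to it in the genome, and DDX60 is a helicase that assists RNA sensing. CMPK2 had 114, 106 and 110 CPM with WT and 91.8, 90.4 and 90.3 with NLS Mut. Its log2 fold change was 0.27 (SE 0.07, adjusted p = 0.061), the largest increase of any member in this comparison. RSAD2 had 176, 163 and 163 CPM with WT and 144, 134 and 143 with NLS Mut. That was a log2 fold change of 0.26 (SE 0.06, adjusted p = 0.061). DDX60 had 340, 291 and 311 CPM with WT and 251, 260.0 and 267 with NLS Mut, a log2 fold change of 0.27 (SE 0.07, adjusted p = 0.067). In all 3 genes every WT library lay above every NLS Mut library. The vector libraries spanned the gap: vector replicate 1 had 112 CPM of CMPK2, 168 of RSAD2 and 321 of DDX60, near the WT libraries, while replicates 2 and 3 had 95 and 99 of CMPK2, 146 and 153 of RSAD2 and 267 and 250 of DDX60.

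These 3 genes sit at the edge of the threshold. CMPK2 and RSAD2 were called in 7 and DDX60 in 6 of 9 other ways of fitting the same libraries, among them DESeq2 (adjusted p = 0.0088, 0.0086 and 0.024) and the fit of WT and NLS Mut alone (0.0093, 0.0074 and 0.0021). With 1 library left out, adjusted p ranged from 0.0047 to 0.27 for CMPK2, from 0.0042 to 0.34 for RSAD2 and from 0.00095 to 0.30 for DDX60. IFIH1 (MDA5), the sensor of long double-stranded RNA, had 108 to 126 CPM and a log2 fold change of 0.02 between WT and NLS Mut.

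The IFIT proteins bind foreign RNA and block its translation. IFIT3, the most abundant of them, had 498, 489 and 465 CPM with vector, 556, 518 and 534 with WT and 503, 519 and 476 with NLS Mut. Its log2 fold change for WT against vector was 0.15 (SE 0.05, adjusted p = 0.22), with no overlap. IFIT2 and IFIT1 were also without overlap there, at 0.17 and 0.12, and IFIT5 was at 0.04. With NLS Mut all 4 were between 0.05 and 0.16. None of the 4 was called by edgeR in either comparison with vector, while DESeq2 called IFIT2 for WT (adjusted p = 0.037) and IFIT1 for NLS Mut (adjusted p = 0.038). IFIT5 turned to -0.02 for WT and -0.004 for NLS Mut with the GC trend removed.

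The IFITM proteins keep viruses from fusing with cell membranes. IFITM3 had 598, 617 and 657 CPM with vector, 586, 642 and 585 with WT and 590.0, 587 and 597 with NLS Mut. Its log2 fold changes lay between -0.08 and 0.03, and both against vector turned positive with the GC trend removed. IFITM1 had 34.2, 32.8 and 31.7 CPM with vector, 25.5, 33.4 and 23.4 with WT and 34.7, 33.8 and 32.3 with NLS Mut. Replicates 1 and 3 of WT were low and replicate 2 was level with the other groups, so the groups overlapped. The log2 fold change between WT and NLS Mut was -0.29 (SE 0.11, adjusted p = 0.27), the largest decrease in that comparison. Without WT replicate 2 it was -0.45 (adjusted p = 0.046, edgeR). That was the only 1 of the 9 fits with a library left out that called IFITM1. It was called in 0 of the 9 other ways of fitting. Over all these fits the log2 fold change lay between -0.45 and -0.18, with adjusted p up to 0.64. IFITM1, IFITM2 and IFITM3 share 32.5%, 22.7% and 21.3% of their exonic bases with overlapping genes and resemble each other, so their counts are uncertain.

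MX1 and MX2 are dynamin-like GTPases that trap viral particles. MX1 had 250.1, 245 and 243 CPM with vector, 257, 265 and 250.1 with WT and 281, 270.1 and 264 with NLS Mut. For NLS Mut against vector its log2 fold change was 0.14 (SE 0.05, adjusted p = 0.26). It passed the threshold only in the 2 fits corrected for GC content among the 9 alternatives. MX2 was at 0.14 and 0.11 against vector, with no overlap in either comparison and no call.

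PARP9 and DTX3L form a ligase that modifies chromatin and viral proteins, and PARP14 transfers single ADP-ribose units. PARP14 had 378, 332 and 338 CPM with vector, 407, 386 and 403 with WT and 377, 370.2 and 364 with NLS Mut. WT lay above both other groups, with a log2 fold change of 0.19 against vector (SE 0.06, adjusted p = 0.12). All 3 genes of this group were positive in both comparisons with vector, between 0.06 and 0.19, and none was called by edgeR, while DESeq2 called PARP14 for WT (adjusted p = 0.033).

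STAT2, the activating subunit of ISGF3, had 132, 136 and 135 CPM with vector, 146, 148 and 152 with WT and 136, 136 and 134 with NLS Mut. The WT libraries were the highest, and the log2 fold change was 0.14 against each of the other groups (adjusted p = 0.31 against vector and 0.36 against NLS Mut). IRF1, a factor induced by type II interferon, was at 0.21 between WT and NLS Mut (adjusted p = 0.25). IRF7, the amplifier of type I interferon genes, was at -0.18 (adjusted p = 0.39).

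SAMHD1, which depletes the nucleotides needed for reverse transcription, had the largest increases against vector. It had 105, 94.9 and 98.4 CPM with vector, 119, 119 and 113 with WT and 128, 116 and 109 with NLS Mut, so both GRP78 groups lay above vector. The log2 fold changes were 0.24 in both (SE 0.07, adjusted p = 0.12 and 0.10). DESeq2 called it in both (adjusted p = 0.036 and 0.027), as did GC correction with the replicate block. BST2 had 295 to 332 CPM with vector, 292 to 334 with WT and 295 to 306 with NLS Mut, with log2 fold changes between -0.08 and 0.07, of which those against vector turned positive with the GC trend removed. SP100, a component of PML nuclear bodies, the antibody receptor TRIM21, the apoptosis factor XAF1 and EPSTI1 had no call, with log2 fold changes from -0.10 to 0.20.

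**Figure D4:**
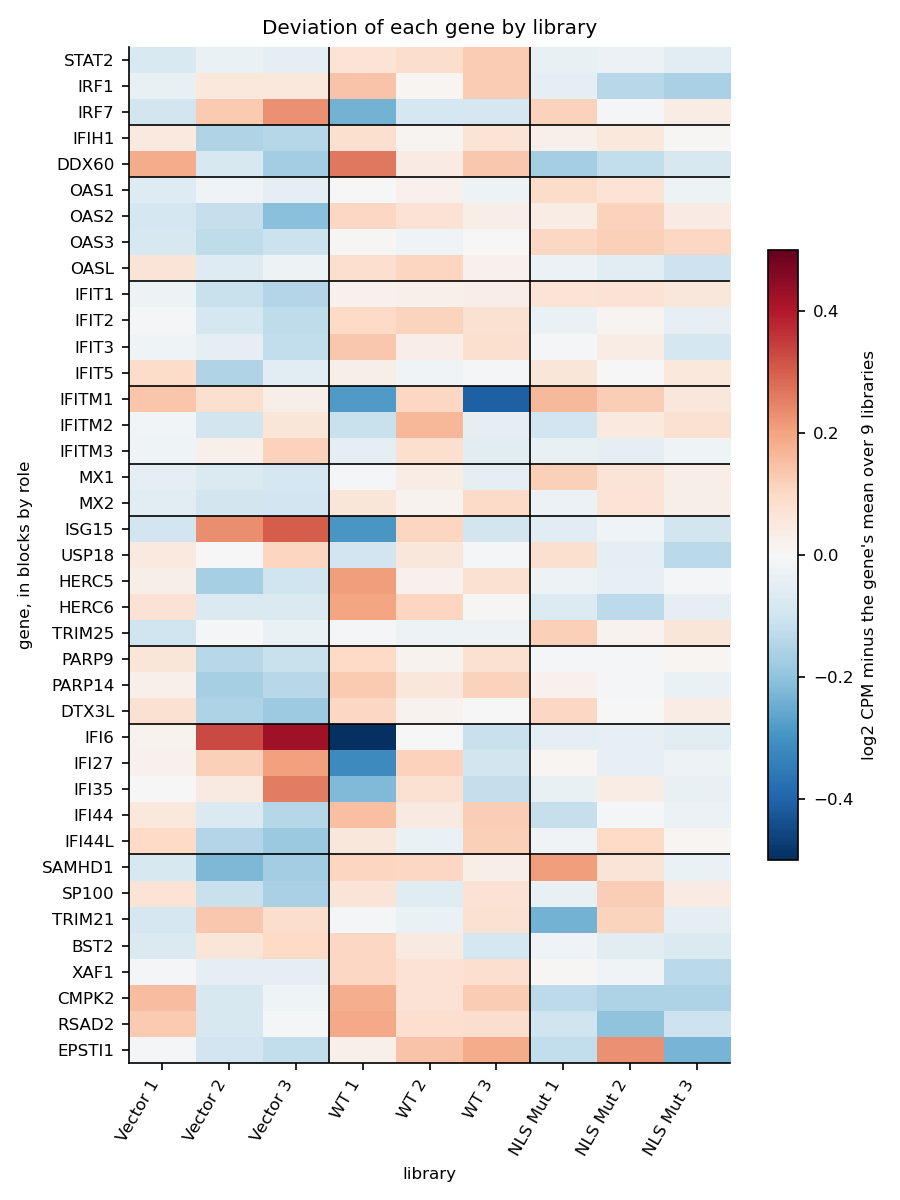
Log2 CPM of each tested member in each library, minus the member's mean over the 9 libraries, in blocks by role (red is higher, blue lower, and the scale ends at 0.5 in either direction). IFI6, ISG15 and IFI27 run opposite to most other members in vector replicates 2 and 3 and in WT replicate 1.

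Libraries of one group also differed among themselves. The median coefficient of variation of the members was 5.86% with vector, 3.85% with WT and 3.08% with NLS Mut. WT replicate 1 was the highest of the 9 libraries for 14 members and the lowest for 6, among them IFI6, IFI27, ISG15 and IRF7. Vector replicate 3 was the lowest for 11 members and the highest for 7, and vector replicate 2 was the lowest for 7.

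Without vector replicate 1, which leaves 2 vector libraries, more members were called against vector. For WT 17 of 39 were called, 13 higher and 4 lower, against 6.33% of all 19857 genes tested in that fit. The 13 that rose were DDX60, DTX3L, HERC5, IFI44, IFI44L, IFIH1, IFIT1, IFIT2, IFIT3, OAS2, PARP9, PARP14 and SAMHD1, by 0.15 to 0.28 on the log2 scale. The 4 that fell were IFI6, IFI27, IRF7 and ISG15, with log2 fold changes from -0.57 to -0.25. These calls lined up with GC content: 12 of the 13 that rose had exons under 45% GC, OAS2 being at 47.0%, and the 4 that fell were at 50.5% to 66.8%. The GC content of all genes called in that fit was not examined. The 2 vector libraries left in this fit are those with the highest GC slopes of all 9, and the part of this gap in the calls was not tested. For NLS Mut 8 were called, against 5.05% of all genes: DTX3L, IFI44L, IFIT1, OAS2, OAS3 and SAMHD1 rose, and IFI6 and ISG15 fell. Of the 6 that rose, 4 were under 45% GC. Between WT and NLS Mut, DDX60, CMPK2 and RSAD2 were called, against 1.95% of all genes. Of the 39 members, 39 for WT against vector, 37 for NLS Mut against vector and 37 for WT against NLS Mut had the direction found with all 9 libraries. Leaving out vector replicate 2 instead called 9 genes higher and 12 lower of 19300 for WT against vector. Leaving out vector replicate 3 called 8 higher and 13 lower of 19362. No member was called against vector, for WT or for NLS Mut, in either of these fits.

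The fold changes of the members followed their GC content. Some members with GC-rich exons, such as IRF7 (66.8%), ISG15 (63.4%) and IFI6 (56.1%), had negative values in both comparisons with vector. Others, such as IFITM2 (55.4%), OAS3 (54.3%) and MX1 (52.4%), had positive values in both. Of the 17 members under 45% GC, 17 were positive for WT and 13 for NLS Mut against vector. The share of positive values among all tested genes under 45% GC was not computed. Across the 39 members, which share the same libraries, fold change and GC content had a Spearman correlation of -0.69 for WT against vector, beside -0.28 over all tested genes. The correlation was -0.35 for NLS Mut against vector (-0.31 over all tested genes) and -0.42 between WT and NLS Mut (0.02 over all tested genes). With the GC trend of each library removed, these became -0.39 for WT against vector and 0.06 for NLS Mut against vector. Between WT and NLS Mut the correlation became -0.49. In this fit calls also rose over all tested genes. Their shares were 2.21% between WT and NLS Mut, 1.09% for WT against vector and 1.29% for NLS Mut against vector. Among the members, DDX60, CMPK2, RSAD2 and IFI44 were called between WT and NLS Mut. For WT against vector IFI6 was then at -0.39 (adjusted p = 0.0017, edgeR), and IFI6 and OAS2 were called. OAS3 with NLS Mut against vector was then at 0.27 (adjusted p = 0.00048), beside calls of OAS2 and MX1. For WT against vector, ISG15 moved from -0.24 to -0.10 and IRF7 from -0.23 to -0.04. For NLS Mut against vector, ISG15 moved from -0.21 to -0.06 and IRF7 turned from -0.05 to 0.13. The part of GC content in the members' differences was not tested further.

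**Figure D5:**
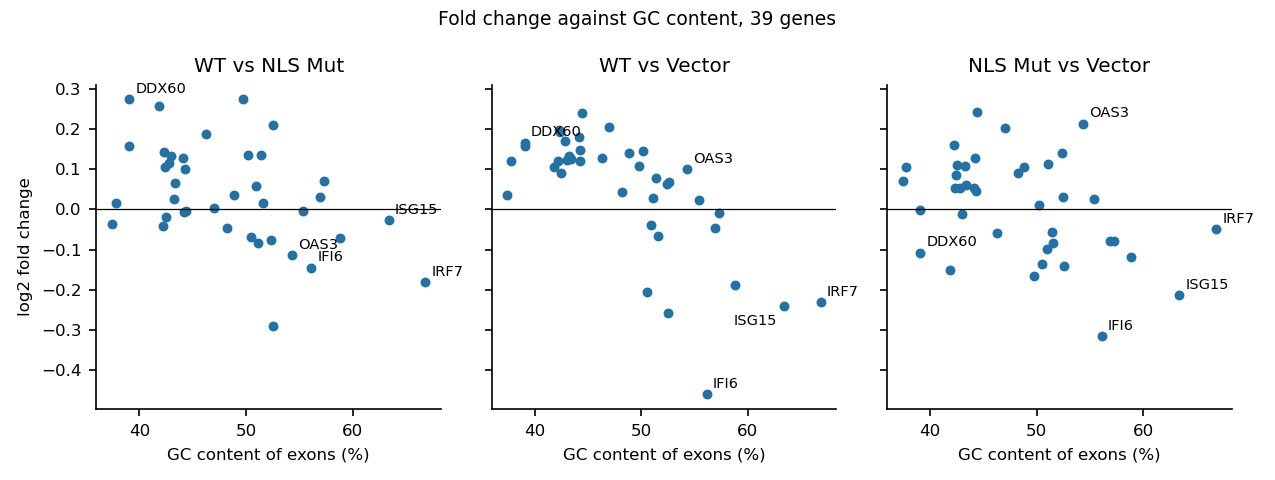
Log2 fold change of the 39 tested members against the GC content of their exons, in percent, in the 3 comparisons, with 5 genes named. The points fall from left to right most clearly for WT against vector, where the Spearman correlation across members was -0.69.

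Of 47 other genes of the interferon pathway, 35 passed the filter and 0 were called in any comparison by edgeR, with 4, 10 and 5 at an unadjusted p under 0.05 for WT against NLS Mut, WT against vector and NLS Mut against vector. Over all tested genes the shares were 11.6%, 11.7% and 12.2%. DESeq2 called 2 (DHX58 and UBA7), 0 and 2 (DHX58 and EIF2AK2), against 1.69%, 1.4% and 2.31% of all tested genes. Without vector replicate 1, edgeR called 1 (UBA7), 5 (among them ADAR, EIF2AK2, IFNGR1 and TYK2) and 5 (among them ADAR, EIF2AK2, ISG20 and TYK2), against 1.95%, 6.33% and 5.05% of all genes. Ligands were scarce: IFNA2 and IFNG were listed at 0 in all libraries, IFNB1 had 4 to 17 reads and IFNL1 7 to 28 reads, and of 9 ligand genes only IFNE and IFNL1 passed the filter. The chemokine CXCL9 was at 0 and CXCL10 had at most 5 reads.

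The receptor and kinase genes were expressed. IFNAR1 had 59.6 to 72.1 CPM, IFNGR1 56.7 to 73.8 and IFNLR1 4.39 to 7.81. JAK1 had 213 to 273 CPM and TYK2 189 to 234. UBA7, the enzyme that activates ISG15, was at 0.22 between WT and NLS Mut (adjusted p = 0.12).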

How the data were processed

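For each of the 9 libraries the authors deposited unnormalized counts of reads on genes, as written by the STAR aligner (STAR 2.7.9a, GRCh38.p14 and DESeq2 1.36.0 per the submitters' processing notes). The annotation release is not given in the sources used here. The unstranded counts were used, since the strands were near equal (first strand 50.6% to 51.9%). Summary lines that name no gene (27.6% to 30.7% of reads) were left out. Counting without strand cannot separate genes that overlap on opposite strands, and reads on more than 1 gene are dropped.

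Counts were fitted with edgeR 4.0.16 in R 4.3.3 (quasi-likelihood test, TMM factors 0.989 to 1.02, filterByExpr leaving 18653 genes, 1 coefficient per group, all 9 libraries), with Benjamini-Hochberg adjustment over the tested genes and a threshold of 0.05. The SE is the size of the log2 fold change over the root of F. An exact permutation test of 3 against 3 cannot go below 0.10. RPKM used GENCODE release 29 exon lengths, which matched 58342 of 61544 genes. In 3 simulations of 18070 genes of WT against NLS Mut with 200 changed, 44.7% of log2 changes of 0.5 and 66.6% of changes of 1 were recovered, with 2.7% false calls.

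The members and lists were chosen with earlier results of these data known. Named by rule were members called in any comparison, the most abundant member of each role, the largest increase and decrease per comparison, members that failed the filter, called pathway genes with the main receptors and kinases, and HSPA5. Other members are given to account for the list, and 1 named pathway gene is not reported here. Alternatives were DESeq2 1.42.0, its size factors, library size alone, other filters, only the 2 groups compared, the replicate block, GC correction (loess, span 0.3), both together, and leaving out each library.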

Additional observations from a re-analysis of the deposited data

How the results depend on the processing

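In this section, counts marked as reported are those of the edgeR fit given above, not counts from the paper. All genes called for WT against NLS Mut (94 as reported) were 316 with DESeq2, 225 with no filter, 315 with only the 2 groups compared, 212 with the replicate block, 413 with GC correction and 494 with GC correction and the replicate block. For WT against vector (104 as reported) the counts under these settings were 262, 289, 26, 232, 204 and 237. For NLS Mut against vector (148 as reported) they were 430 with DESeq2, 240 with no filter, 230 with the replicate block, 241 with GC correction and 294 with both. With 1 library left out, the first count lay between 27 and 388, the second between 19 and 1256, and the third between 33 and 1002, the highest each time without vector replicate 1. The cause was not tested.

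Members called for WT against NLS Mut (0 as reported) were 3 with DESeq2, no filter, only the 2 groups compared or the replicate block, 2 with at least 1 CPM in 3 libraries, and 4 with GC correction with or without the replicate block. For WT against vector (1 as reported) they were 4 with DESeq2, 3 with no filter, 0 with only the 2 groups compared, 3 with the replicate block, 2 with GC correction and 3 with GC correction and the replicate block. For NLS Mut against vector (1 as reported) they were 4 with DESeq2, 3 with no filter, 2 with only the 2 groups compared, 2 with the replicate block, 3 with GC correction and 6 with GC correction and the replicate block. Leaving out 1 library gave 0 to 3, 0 to 17 and 0 to 8. Called pathway genes, 0 as reported, were 2 with DESeq2 and 1 with only the 2 groups compared or either GC correction for WT against NLS Mut, and 2 with DESeq2 and 1 with the replicate block for NLS Mut against vector. Leaving out 1 library gave 0 to 1, 0 to 5 and 0 to 5.

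The median log2 fold change of the members for WT against vector was 0.078 with library size alone, and with 1 library left out it ranged from 0.082 to 0.13. For WT against NLS Mut the range was 0.029 to 0.054, and for NLS Mut against vector 0.0008 to 0.052. HSPA5 between WT and NLS Mut passed the threshold at 0.19 with no filter, the replicate block, GC correction and GC correction with the replicate block, and at 0.20 with only the 2 groups compared, and leaving out 1 library gave 0.14 to 0.28.

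Beside IFIT5 and IRF7, given above, the signs of IFITM3 and BST2 changed under some settings. With GC correction and with GC correction and the replicate block, IFITM3 was 0.024 and 0.024 for WT against vector and 0.0035 and 0.0036 for NLS Mut against vector, and BST2 was 0.069 and 0.066 for WT and 0.0068 and 0.0057 for NLS Mut. With 1 library left out, IFITM3 for WT against NLS Mut ranged from -0.006 to 0.061 and BST2 for WT against vector from -0.058 to 0.049. Among 20 further fold changes of members named by rule or for near calls that are not given above, 6 changed sign under some setting, none of them above 0.073 in size after the change (smallest adjusted p 0.82).

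The labels do not say whether the replicate numbers pair the libraries. Deviations from the group mean had correlations of -0.032 to 0.157 between same-numbered libraries. Between libraries of different number they were -0.174 to 0.127. With 3 libraries per group this cannot settle the pairing, so a call lost or gained under the replicate block is given as a setting only. With 3 libraries per group the median coefficient of biological variation was 11.2%, and 44.7% of simulated log2 changes of 0.5 were recovered. The changed genes were drawn at random from all tested genes, so the share recovered among the members was not measured. The SE of a member's log2 fold change was between 0.05 and 0.11. For NLS Mut against vector, edgeR called OAS3 at 0.21, while OAS2 at 0.20 and SAMHD1 at 0.24 were not called.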
